A study of Mus musculus with 6 samples.

Results

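The genes described here are 9 feedback inhibitors of mitogen-activated protein kinase (MAPK) signalling: 5 dual-specificity phosphatase genes (Dusp1, Dusp4, Dusp5, Dusp6 and Dusp10) and 4 genes of the Sprouty and Spred family (Spry2, Spry4, Spred1 and Spred2). They were picked by gene symbol from tables of 14701 genes, and each of the 9 had a row in all 6 libraries. The cells were IEC 4.1, a mouse line labelled as intestinal epithelium, and RNA was sequenced on the DNBSEQ platform. There were 3 libraries of cells given interferon-gamma (IFN-gamma, 10 ng/ml, for 6 h), numbered 1, 2 and 4, and 3 control libraries, numbered 2, 3 and 4. For the controls no dose or time is given. The labels name no other agent and no genetic change, and nothing says that the replicates were separate cultures. The p-values below therefore set the difference of the groups against the spread between these libraries, which may be technical.

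In the MAPK cascades, receptors switch on Ras, and a relay of kinases then passes phosphate to ERK, p38 or JNK. Many DUSP proteins, the MAP kinase phosphatases, remove that phosphate again, and several of their genes are themselves switched on by ERK, which makes them both a readout of the pathway and a brake on it. Sprouty proteins act higher up, between receptor tyrosine kinases and Raf, and Spred proteins bring neurofibromin, an inactivator of Ras, to the membrane. In the intestine ERK signalling is known for its part in epithelial proliferation and repair.

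Of the 9 genes, 5 fell in IFN-gamma-treated cells (Dusp4, Dusp5, Spry4, Dusp1 and Spred2), 1 rose (Spred1), and 3 did not pass the test (Dusp6, Dusp10 and Spry2). The test was edgeR's quasi-likelihood test with Benjamini-Hochberg adjustment over the 11423 genes with enough counts, at a threshold of 0.05, and all 9 genes had enough counts. The treatment moved many genes, with 38.1% of all genes tested past that threshold in either direction, so 6 of 9 is to be read against that share. For falls the share was 18.1% of all genes tested against 5 of these 9, and for rises 19.9% against 1 of 9. A called fall to 0.5 of the control level or lower was found in 1.05% of all genes tested and in 2 of the 9, Dusp4 and Dusp5. The 95% intervals of their folds reach above 0.5, to 0.519 for Dusp4 and 0.568 for Dusp5. Without IFN-gamma replicate 4 or control replicate 2, Dusp5 fell short of that cut (log2 fold changes of -0.96 and -0.97). The median log2 fold change of the 9 genes was -0.27, beside 0.01 over all genes tested. In bulk RNA, fewer cells that express a gene and less of its RNA per cell cannot be told apart.

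Library totals were close together, from 17490689 to 18678543 counts, and the correlation of libraries across genes (Spearman's rho) was 0.994 to 0.996 within a group and 0.976 to 0.978 between groups. The labelled cell type was checked against marker genes. Of 10 epithelial markers, 6 had a row, and none reached more than 0.58 transcripts-per-million (TPM) units in any library. Their summed level was 0.55 to 0.70 TPM in IFN-gamma libraries and 0.72 to 1.02 TPM in controls. All 8 mesenchymal markers had a row. They summed to 3922.5 to 4123.8 TPM in IFN-gamma libraries and 3880.2 to 4038.7 TPM in controls. Of these 8, 2 rose and 5 fell, beside 19.9% and 18.1% of all genes tested. The defining epithelial genes were thus near 0, against the label, and the cells are called IEC 4.1 cells here. Leukocyte markers summed to 23.05 to 24.3 TPM with IFN-gamma and 26.46 to 31.44 TPM in controls, most of it from Cd14, and Ptprc, which defines leukocytes, was at 0 in all IFN-gamma libraries.

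The promoters of Dusp5 and Dusp1 are shown first because, among the members searched, they alone held a serum response box and a full cyclic AMP response element, motifs known from genes that are switched on quickly. Of the 9 genes, 7 matched the RefSeq promoter table (build GRCm38.p6), which gives 250 bases before and 50 bases after each gene's start, and Dusp4 and Spry4 had no entry. In the Dusp5 promoter, chr19:53528895-53529194 on the plus strand, capitals mark 2 adjacent serum response (CArG) boxes, which begin 82 and 72 bases before the start, and a CRE half-site read on the opposite strand, 55 bases before it. In the Dusp1 promoter, chr17:26508423-26508722 on the minus strand, capitals mark a CRE half-site 191 bases and a full cyclic AMP response element (CRE) 143 bases before the start.
Dusp5: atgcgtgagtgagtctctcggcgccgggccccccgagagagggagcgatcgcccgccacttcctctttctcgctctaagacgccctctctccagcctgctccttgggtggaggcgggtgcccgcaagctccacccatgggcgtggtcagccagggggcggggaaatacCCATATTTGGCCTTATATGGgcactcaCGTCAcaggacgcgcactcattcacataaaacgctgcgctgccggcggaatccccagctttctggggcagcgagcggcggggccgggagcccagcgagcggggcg
Dusp1: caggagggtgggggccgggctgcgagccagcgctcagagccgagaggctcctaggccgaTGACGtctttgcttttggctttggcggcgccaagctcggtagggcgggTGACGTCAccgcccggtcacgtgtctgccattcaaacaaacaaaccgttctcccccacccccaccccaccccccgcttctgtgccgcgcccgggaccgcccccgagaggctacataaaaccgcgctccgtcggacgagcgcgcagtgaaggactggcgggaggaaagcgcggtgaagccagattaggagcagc

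Both strands of the 7 promoters were searched for 7 motifs. The CArG box was found in 1 of 7 members and in 1.63% of all 32851 promoters in the table, and the CRE (TGACGTCA) in 1 of 7 members and 1.79% of all. The CRE half-site (TGACG), which is also the first part of the CRE, was found in Dusp1, Dusp5 and Spred2, that is in 3 of 7 members and in 20.8% of all promoters. The letters of the ETS motif (CCGGAAGT, in 3.89% of all promoters), the AP-1 motif (TGANTCA, 7.81%), the GAS motif bound by STAT dimers (TTCNNNGAA, 8.3%) and the ISRE core (GAAANNGAA, 8.56%) were in none of the 7 windows. A match is a description of the sequence only. The 7 promoters were rich in G and C, at 57.0% to 72.3%, beside a median of 52.7% over all promoters in the table.

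Dusp4 encodes a nuclear phosphatase of ERK and JNK (gene ID 319520, chromosome 8, 34807610 to 34819894, GRCm38.p6). It had 11.8, 10.1 and 11.7 CPM (counts-per-million units of the TMM-scaled library) in IFN-gamma replicates 1, 2 and 4, against 26.5, 26.2 and 21.6 CPM in control replicates 2, 3 and 4. All 3 IFN-gamma libraries lay far below all controls, and the lowest control, replicate 4, was still well above the highest treated library. It averaged 11.2 ± 0.938 CPM with IFN-gamma and 24.8 ± 2.73 CPM in controls (SD, n = 3 each), a log2 fold change of -1.14 ± 0.12 (SE), with an edgeR quasi-likelihood adjusted p of 2.7272e-09. This was the deepest fall among the 9 genes, and only 76 of the genes tested fell further. Each SE here and below is of log2 CPM across the libraries and does not come from the edgeR fit.

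Dusp5 encodes a nuclear phosphatase that acts on ERK alone among the MAP kinases (gene ID 240672, chromosome 19, 53529145 to 53541809), and its promoter holds the CArG boxes shown above. It had 7.73, 7.38 and 6.42 CPM in IFN-gamma replicates 1, 2 and 4, against 15.9, 13.9 and 14.3 CPM in control replicates 2, 3 and 4. The groups did not overlap, and each treated library was at a similar distance below the controls. Means were 7.17 ± 0.681 CPM with IFN-gamma and 14.7 ± 1.07 CPM in controls (SD, n = 3 each), and the log2 fold change was -1.03 ± 0.10 (SE; edgeR quasi-likelihood adjusted p = 5.357e-08).

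Dusp1 encodes a nuclear phosphatase of p38, JNK and ERK and is an immediate-early gene (gene ID 19252, chromosome 17, 26505591 to 26508472, minus strand). It had 14.2, 14.7 and 13.4 CPM in IFN-gamma replicates 1, 2 and 4, against 17.3, 17.6 and 18.0 CPM in control replicates 2, 3 and 4. The groups were separate, but the gap was much narrower than for Dusp4 and Dusp5. The level was 20.1% lower with IFN-gamma, a log2 fold change of -0.32 ± 0.04 (SE), with an edgeR quasi-likelihood adjusted p of 0.003147, and 1249 of the genes tested fell further.

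Dusp6 encodes the cytoplasmic, ERK-selective phosphatase that is often used as a readout of ERK activity (gene ID 67603, chromosome 10, 99263231 to 99267489). It had 48.4, 42.8 and 46.5 CPM in IFN-gamma replicates 1, 2 and 4, against 47.1, 47.6 and 45.0 CPM in control replicates 2, 3 and 4. The groups overlapped, and replicate 1 of the treated libraries was the highest of all 6 while replicate 2 was the lowest. The log2 fold change was -0.02 ± 0.06 (SE; edgeR quasi-likelihood adjusted p = 0.82669), and its 95% interval runs from a fold of 0.901 to one of 1.08, so folds like those of Dusp4 and Dusp5 lie outside it.

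Dusp10 encodes a phosphatase of p38 and JNK rather than ERK (gene ID 63953, chromosome 1, 184034381 to 184075636). It had 23.0, 22.6 and 22.4 CPM in IFN-gamma replicates 1, 2 and 4, against 22.3, 22.9 and 20.6 CPM in control replicates 2, 3 and 4. The treated values lay within the span of the controls apart from replicate 1, which was just above it. The log2 fold change was 0.05 ± 0.05 (SE; edgeR quasi-likelihood adjusted p = 0.65241), with a 95% interval from a fold of 0.930 to one of 1.15.

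Spry4, whose protein acts between receptor and Raf, was the least abundant of the 9 (gene ID 24066, chromosome 18). It had 28, 25 and 26 counts in IFN-gamma replicates 1, 2 and 4, against 57, 55 and 48 counts in control replicates 2, 3 and 4. The groups were well apart although the gene is rare. It averaged 1.49 ± 0.0977 CPM with IFN-gamma and 2.83 ± 0.264 CPM in controls (SD, n = 3 each), a log2 fold change of -0.93 ± 0.09 (SE; edgeR quasi-likelihood adjusted p = 0.00049393). With so few counts the 95% interval is wide, from -1.32 to -0.53 on the log2 scale.

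Spry2, a Sprouty gene that is also induced by receptor signalling (gene ID 24064, chromosome 14, 105891947 to 105896819), had 9.51, 9.36 and 9.71 CPM in IFN-gamma replicates 1, 2 and 4, against 10.4, 9.80 and 9.34 CPM in control replicates 2, 3 and 4. The treated values lay inside the span of the controls in CPM. In TPM all treated libraries lay below all controls, with 7.89, 7.29 and 7.85 against 8.76, 8.69 and 8.16. Limma on log2(TPM + 1) did not call the gene (adjusted p = 0.234). The log2 fold change was -0.05 ± 0.05 (SE; edgeR quasi-likelihood adjusted p = 0.74724), with a 95% interval from a fold of 0.841 to one of 1.12, which does not reach the change measured for Spry4.

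The Spred genes moved in opposite directions. Spred1 (gene ID 114715, chromosome 2, 117121071 to 117182279) had 115, 110 and 120 CPM in IFN-gamma replicates 1, 2 and 4, against 90.2, 101 and 95.3 CPM in control replicates 2, 3 and 4. All treated libraries were above all controls, and the change was 1.20-fold, a log2 fold change of 0.27 ± 0.06 (SE; edgeR quasi-likelihood adjusted p = 0.00070654). The rise depended on the scale. In TPM the groups overlapped, with 30.4, 27.6 and 30.3 in IFN-gamma libraries against 23.7, 28.6 and 26.6 in controls, and limma on log2(TPM + 1) gave 0.16 with an adjusted p of 0.121.

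Spred2 (gene ID 114716, chromosome 11, 19924442 to 20024026) had 59.1, 54.1 and 60.9 CPM in IFN-gamma replicates 1, 2 and 4, against 71.4, 70.8 and 67.7 CPM in control replicates 2, 3 and 4. All treated libraries lay below all controls. The fold of IFN-gamma over control was 0.829, a log2 fold change of -0.27 ± 0.06 (SE; edgeR quasi-likelihood adjusted p = 0.00098429). The ratio of Spred1 to Spred2, both in TPM, was 1.05, 1.10 and 1.14 in IFN-gamma replicates 1, 2 and 4, against 0.682, 0.820 and 0.785 in control replicates 2, 3 and 4. Spred1 was thus the more abundant of the pair in every treated library and Spred2 in every control.

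**Figure D1:**
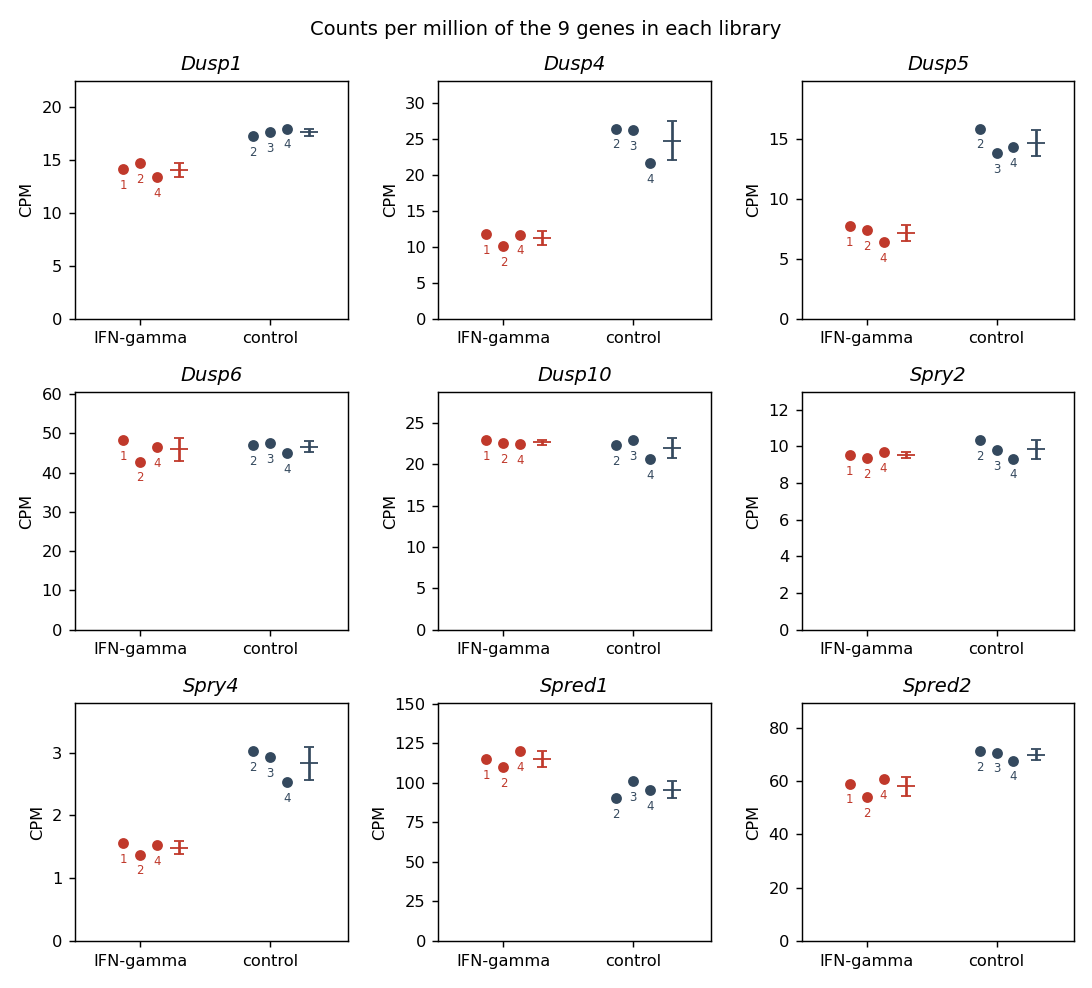
CPM (linear axis from 0, a separate scale for each gene) of the 9 genes in each library, with IFN-gamma libraries in red on the left and controls in dark blue on the right, numbered by replicate; the bars give the mean and SD of 3 libraries. Dusp4, Dusp5 and Spry4 show the widest gaps, Dusp1 and Spred2 narrower ones, Spred1 lies higher with IFN-gamma, and Dusp6, Dusp10 and Spry2 overlap.

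For 6 of the 9 genes the CPM of the groups did not overlap, beside 48.0% of all genes tested. In RefSeq coordinates no other gene with a row in the tables overlapped a member. In the longer GENCODE models Ergic1 overlaps Dusp1 and 1700056E22Rik overlaps Dusp10 on the opposite strand. The labels do not say whether the counting used strand, without which reads from a shared stretch cannot be told apart. Ergic1 had 12718 counts summed over IFN-gamma libraries and 17063 over controls, against 749 and 997 for Dusp1. Its log2 fold change was -0.34 (edgeR quasi-likelihood adjusted p = 1.9562e-05), close to that of Dusp1 (-0.32). Whether Ergic1 reads entered the counts of Dusp1 was not tested. Spred2 had estimated counts that were not whole in 3 libraries, as when a few reads are divided between genes.

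Levels can be compared between genes only per length, in TPM. With IFN-gamma the order was led by Spred1 at 29.4 ± 1.56 TPM, Dusp6 at 27.7 ± 2.36 TPM and Spred2 at 26.8 ± 1.96 TPM, whose libraries overlapped. Dusp10 at 13.7 ± 0.531 TPM and Dusp1 at 12.9 ± 0.705 TPM came next and did not overlap each other. Dusp4 at 7.93 ± 0.803 TPM, Spry2 at 7.68 ± 0.335 TPM and Dusp5 at 7.10 ± 0.807 TPM followed, each overlapping the next, and Spry4 was last at 0.513 ± 0.0404 TPM (SD, n = 3 throughout). In controls the order began with Spred2 at 34.5 ± 0.516 TPM, Dusp6 at 30.3 ± 1.25 TPM and Spred1 at 26.3 ± 2.47 TPM, with no overlap between neighbours. Dusp4 at 18.9 ± 1.88 TPM overlapped Dusp1 at 17.4 ± 0.907 TPM, and Dusp5 at 15.7 ± 0.603 TPM overlapped Dusp10 at 14.3 ± 0.857 TPM. Spry2 at 8.54 ± 0.328 TPM and Spry4 at 1.05 ± 0.0833 TPM closed the order. Dusp10 thus ranked below Dusp4, Dusp1 and Dusp5 in controls and above all of them with IFN-gamma. By mean TPM, Spry4 lay above 25.6% of the genes in the tables, Spry2 above 44.1%, and the others above 49.4% to 69.0%.

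The other 5 genes of the MAP kinase phosphatase family give the 5 DUSP members their context. Of the 4 with enough counts, 2 fell and 1 rose, beside 18.1% and 19.9% of all genes tested. The other 1 did not pass, and the median log2 fold change of the 4 was 0.01. Dusp9, a cytoplasmic ERK-selective phosphatase like Dusp6, had 14.7, 14.0 and 14.1 TPM in IFN-gamma replicates 1, 2 and 4, against 41.0, 36.8 and 39.1 TPM in control replicates 2, 3 and 4. Its log2 fold change was -1.34 ± 0.07 (SE; edgeR quasi-likelihood adjusted p = 1.4527e-12), a deeper fall than that of any of the 9 members. Dusp7, the third of the cytoplasmic ERK phosphatases, fell slightly, with a log2 fold change of -0.22 and an adjusted p of 0.011882, and without IFN-gamma replicate 2 the adjusted p was 0.0503, which leaves Dusp9 as the 1 gene called lower. Dusp16, a JNK phosphatase, rose by a log2 fold change of 0.45 (adjusted p = 1.5789e-05). Dusp8, which acts on JNK and p38, had a log2 fold change of 0.24 and an adjusted p of 0.072451, and it was called without IFN-gamma replicate 4 (adjusted p = 0.02), which made 2 genes called higher. Dusp2, a nuclear phosphatase, was too rare to test in the main fit, with 2, 2 and 0 counts in IFN-gamma libraries and 7, 6 and 5 in controls.

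Grouped by location, inducibility and the MAP kinases they act on, with groups drawn after the values were seen and therefore given with no test, the phosphatases differed in their summed TPM. The nuclear, inducible group (Dusp1, Dusp2, Dusp4 and Dusp5) summed to 29.9, 27.5 and 26.5 TPM in IFN-gamma replicates 1, 2 and 4, against 52.5, 53.7 and 50.8 TPM in control replicates 2, 3 and 4, a ratio of means of 0.534. The cytoplasmic ERK group (Dusp6, Dusp7 and Dusp9) summed to 62.8 ± 4.79 TPM with IFN-gamma and 95.5 ± 0.924 TPM in controls (SD, n = 3 each), and Dusp9 alone accounted for 14.3 TPM with IFN-gamma and 39.0 TPM in controls. The JNK and p38 group (Dusp8, Dusp10 and Dusp16) summed to 30.6 ± 2.14 TPM with IFN-gamma and 28.3 ± 1.49 TPM in controls (SD, n = 3 each), with overlapping libraries. All 10 phosphatases together gave 121 ± 8.56 TPM with IFN-gamma and 176 ± 2.36 TPM in controls (SD, n = 3 each). Dusp6 made up 22.8% of that sum with IFN-gamma and 17.2% in controls, and Dusp9 made up 11.8% with IFN-gamma and 22.1% in controls. On the log2(TPM + 0.1) scale the median of all genes tested lay 0.11 lower than in the edgeR fit, so TPM values overall sit slightly lower in IFN-gamma libraries.

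**Figure D2:**
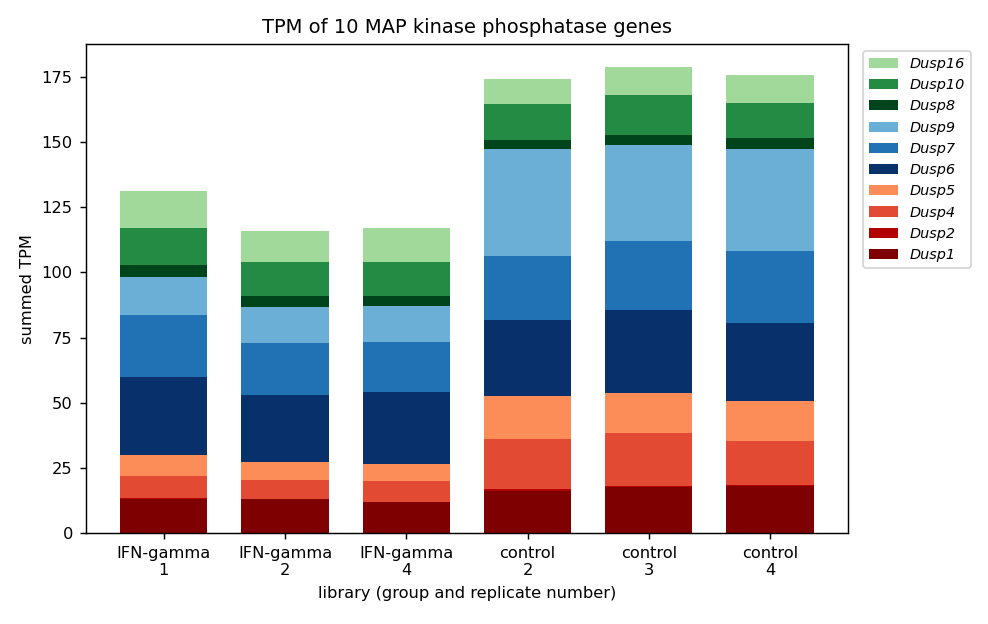
Summed TPM (vertical axis, from 0) of 10 MAP kinase phosphatase genes in each of the 6 libraries, IFN-gamma on the left and control on the right, with each coloured segment 1 gene: reds for the nuclear inducible group, blues for the cytoplasmic ERK group and greens for the JNK and p38 group. The sums are 131, 116 and 117 TPM with IFN-gamma and 174, 179 and 176 TPM in controls, and the red segments and that of Dusp9 are visibly shorter with IFN-gamma.

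Among the other Sprouty and Spred genes, Spry1 and Spred3 could be tested and Spry3 had too few counts. Spry1 fell, with 11, 4 and 8 counts in IFN-gamma replicates 1, 2 and 4, against 24, 21 and 21 counts in control replicates 2, 3 and 4, and a log2 fold change of -1.42 ± 0.34 (SE; edgeR quasi-likelihood adjusted p = 0.001892). The error is wide because the gene is so rare, but the groups did not overlap. Spred3 rose by a log2 fold change of 0.34 (edgeR quasi-likelihood adjusted p = 0.014491), a call lost without IFN-gamma replicate 1 (adjusted p = 0.0983), without IFN-gamma replicate 2 (0.0522) and with DESeq2 (0.0587), and also with total-count scaling (0.051) and on the log2(TPM + 1) scale (0.153).

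**Figure D3:**
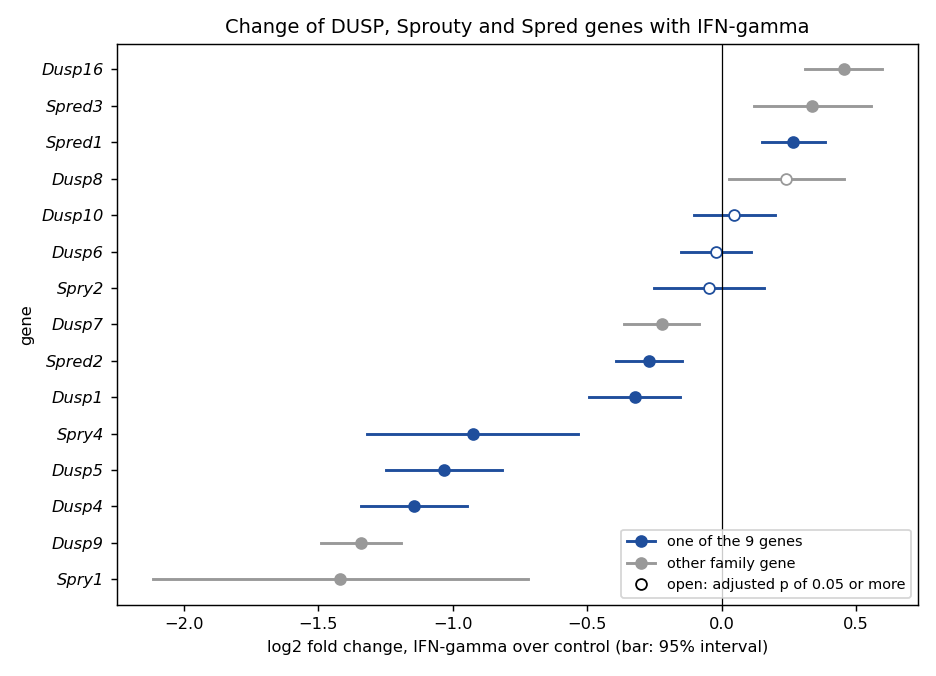
Log2 fold change, IFN-gamma over control (horizontal axis), of the 9 genes in blue and of 6 other tested genes of the same families in grey, with bars for the 95% interval and open circles for an adjusted p of 0.05 or more. Spry1, Dusp9, Dusp4, Dusp5 and Spry4 lie farthest to the left, and Dusp16, Spred3 and Spred1 are the filled points to the right of 0.

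Genes that ERK is known to switch on were counted next, since several of the inhibitor genes, such as Dusp6, are also ERK targets. The list of these targets, like the others here, was chosen with earlier results of these data known. Of its 13 genes, 12 were tested and Epha4 had no row. Of the 12, 9 fell and 2 rose, beside 18.1% and 19.9% of all genes tested. The other 1 did not pass, and the median log2 fold change was -0.38. The count of falls was 8 in every fit that left out a library. It was also 8 with DESeq2, limma-voom, robust=FALSE, no filter and the replicate block. Named after its values were seen, Etv1 was near the threshold (log2 fold change -0.33, edgeR quasi-likelihood adjusted p = 0.048678). Ccnd1, which encodes cyclin D1, fell to 99.3 ± 5.41 TPM with IFN-gamma, against 222 ± 3.64 TPM in controls (SD, n = 3 each; log2 fold change -1.05, adjusted p = 3.7151e-13). Etv5 and Etv4, ETS factors whose genes respond to ERK much as Dusp6 and Spry4 do, had log2 fold changes of -0.97 (adjusted p = 4.909e-09) and -0.61 (adjusted p = 1.2131e-08), and the receptor gene Epha2 one of -0.72 (adjusted p = 1.9915e-10). Etv5 and Spry4 were thus close to each other in the size of their fall, and Dusp6 was not among the genes that fell. Fos, the 1 gene that did not pass, had a log2 fold change of 0.27 and an adjusted p of 0.22845. Named after their values were seen, Phlda1 (log2 fold change 0.27, adjusted p = 0.00062808) and Ier3 (0.47, adjusted p = 6.9833e-07) were the genes that rose, while Myc (-0.60), Fosl1 (-0.43), Emp1 (-0.34) and Egr1 (-0.26) were among those that fell. On the log2 TPM scales 1 gene of this list rose.

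Of 12 other brakes between receptor and ERK, 3 fell and 3 rose, beside 18.1% and 19.9% of all genes tested. The other 6 did not pass, and the median log2 fold change of the 12 was 0.03. Rasa1, which like neurofibromin inactivates Ras, fell to 40.4 ± 2.49 TPM with IFN-gamma, against 74.9 ± 6.83 TPM in controls (SD, n = 3 each; log2 fold change -0.78, adjusted p = 4.1098e-10). Il17rd, also called Sef and often found together with Sprouty genes in fibroblast growth factor signalling, rose to 8.36 ± 0.772 TPM with IFN-gamma, against 5.29 ± 0.546 TPM in controls (log2 fold change 0.78, adjusted p = 1.5733e-08). Its change had the opposite sign to that of Spry4 (-0.93). Lrig1, a brake on ErbB receptors, had a log2 fold change of -0.18 (adjusted p = 0.010619), and the phosphatase gene Ptpn1 rose by 0.20 (adjusted p = 0.0040434). Named after their values were seen, Pea15a had a log2 fold change of -0.13 (adjusted p = 0.049838) and Ptpn2 rose by 0.18 (adjusted p = 0.022323). The call of Pea15a was lost in 5 of 6 fits that left out a library (adjusted p 0.0563 to 0.169 in those), all but that without control replicate 4. The call of Ptpn2 was lost without IFN-gamma replicate 4 (0.108), control replicate 3 (0.0874) or control replicate 4 (0.0968). With total-count scaling, and on the log2 TPM scales, 1 of these brakes rose. Pebp1, a Raf inhibitor, had a log2 fold change of 0.06 (adjusted p = 0.33677) and Errfi1, an inhibitor of the EGF receptor, one of -0.02 (adjusted p = 0.7566).

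The kinases that these inhibitors restrain were examined too. Of 20 genes of the ERK cascade, 7 rose and 3 fell, beside 19.9% and 18.1% of all genes tested. The other 10 did not pass, and the median log2 fold change of the 20 was 0.07. The count of rises was 4 without IFN-gamma replicate 1, control replicate 3 or control replicate 4, 4 with DESeq2, upper-quartile or total-count scaling, and 2 on the log2 TPM scales. The count of falls was 6 with total-count scaling and 5 on the log2 TPM scales. Map2k1, which encodes MEK1, rose to 127 ± 3.62 TPM with IFN-gamma, against 93.5 ± 4.94 TPM in controls (SD, n = 3 each; log2 fold change 0.55, adjusted p = 2.3388e-08). Nras (0.31, adjusted p = 4.4996e-05) and the ribosomal S6 kinase gene Rps6ka3 (0.29, adjusted p = 0.00017217) rose by less, and the adaptor gene Shc1 fell, with a log2 fold change of -0.25 (adjusted p = 0.0027205). The rise of Rps6ka3 depended on the scale. In TPM its groups overlapped, and limma on log2(TPM + 1) did not call it (adjusted p = 0.124). Mapk3, which encodes ERK1, had a log2 fold change of -0.15 (adjusted p = 0.036067), and Map2k2, which encodes MEK2, one of -0.08 (adjusted p = 0.28277; called lower in 3 of 17 alternatives, with total-count scaling and on the log2 TPM scales). Mapk3, named after its values were seen like the adaptor gene Frs2 (-0.16, adjusted p = 0.037773), was no longer called without IFN-gamma replicate 2 (0.0548), IFN-gamma replicate 4 (0.0934) or control replicate 2 (0.159). Frs2 was no longer called without IFN-gamma replicate 2 (0.109), IFN-gamma replicate 4 (0.0508), control replicate 3 (0.145) or control replicate 4 (0.0951), and the count of falls was 1 without IFN-gamma replicate 2 or 4.

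Of 16 genes of the p38 and JNK cascades, which Dusp1 and Dusp10 restrain, 14 were tested, Mapk10 had too few counts and Mapk13 had no row. Of the 14, 6 fell and 3 rose, beside 18.1% and 19.9% of all genes tested. The other 5 did not pass, and the median log2 fold change was -0.10. The count of falls was 4 with DESeq2, 5 with limma-voom and 8 with upper-quartile scaling. Map2k4 (-0.16, adjusted p = 0.049988) and Map2k7 (-0.16, adjusted p = 0.042046), named after their values were seen, passed edgeR's quasi-likelihood test narrowly. For Map2k7 the CPM of the groups overlapped. Map2k3, which activates p38, fell to 125 ± 7.43 TPM with IFN-gamma, against 210 ± 7.51 TPM in controls (SD, n = 3 each; log2 fold change -0.65, adjusted p = 2.829e-09). Map2k6, the other p38 activator, had a log2 fold change of -0.67 (adjusted p = 6.6832e-05) and Mapk14, which encodes p38 alpha, one of -0.34 (adjusted p = 7.9084e-06). Map3k8, a kinase that feeds into MEK and ERK, was rare but rose to 2.74 ± 0.446 TPM with IFN-gamma, against 1.06 ± 0.211 TPM in controls (log2 fold change 1.46, adjusted p = 3.2396e-06). Named after their values were seen, Mapk11 rose by 0.41 (adjusted p = 0.00017443) and Mapk9 by 0.20 (adjusted p = 0.01089). The call of Mapk9 was lost without control replicate 4 (0.0659) and with upper-quartile (0.0507) or total-count scaling (0.0938). It was also lost with limma on log2(TPM + 1) (0.435) and log2(TPM + 0.1) (0.428), and the count of rises was 2 in each of these fits. Mapkapk2, a kinase below p38, had a log2 fold change of -0.09 (adjusted p = 0.17784), and Map3k7 one of -0.12 (adjusted p = 0.090441). Mapkapk2 was called lower in 4 of 17 alternatives and Map3k7 in 5 of 17, including the fit without IFN-gamma replicate 4 (0.0251).

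Of 12 growth factor receptor genes, whose signals Sprouty and Spred proteins limit, 11 were tested. Of these, 4 fell and 4 rose, beside 18.1% and 19.9% of all genes tested. The other 3 did not pass, and the median log2 fold change of the 11 was -0.11. Egfr had a log2 fold change of -0.74 (adjusted p = 2.658e-09), Pdgfra one of -0.65 (adjusted p = 1.2318e-07) and Pdgfrb one of -0.60 (adjusted p = 5.1133e-08). Erbb3 rose by 1.04 (adjusted p = 3.3494e-06) at a low level, 1.58 ± 0.147 TPM with IFN-gamma and 0.827 ± 0.0462 TPM in controls (SD, n = 3 each). Named after their values were seen, Igf1r rose by 0.42 (adjusted p = 4.5016e-06), Insr by 0.25 (adjusted p = 0.018613) and Met by 0.17 (adjusted p = 0.018013), and Fgfr3 fell, at -0.61 (adjusted p = 0.016282). Insr was no longer called without IFN-gamma replicate 1 (0.0881) or control replicate 2 (0.116), Met without control replicate 2 (0.0894), and Fgfr3 without IFN-gamma replicate 2 (0.113) or control replicate 2 (0.0522), so the count of rises was 2 without control replicate 2, and also with upper-quartile or total-count scaling and on the log2 TPM scales. Axl, the most abundant of the list, had a log2 fold change of -0.12 (adjusted p = 0.05312) and was called lower in 10 of 17 alternatives, among them DESeq2 (0.013), limma-voom (0.0397) and the fits without IFN-gamma replicate 1 (0.0351) or control replicate 2 (0.0478). Fgfr1 had one of -0.11 (adjusted p = 0.12141) and was called lower in 6 of 17, among them the fit without IFN-gamma replicate 1 (0.049).

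**Figure D4:**
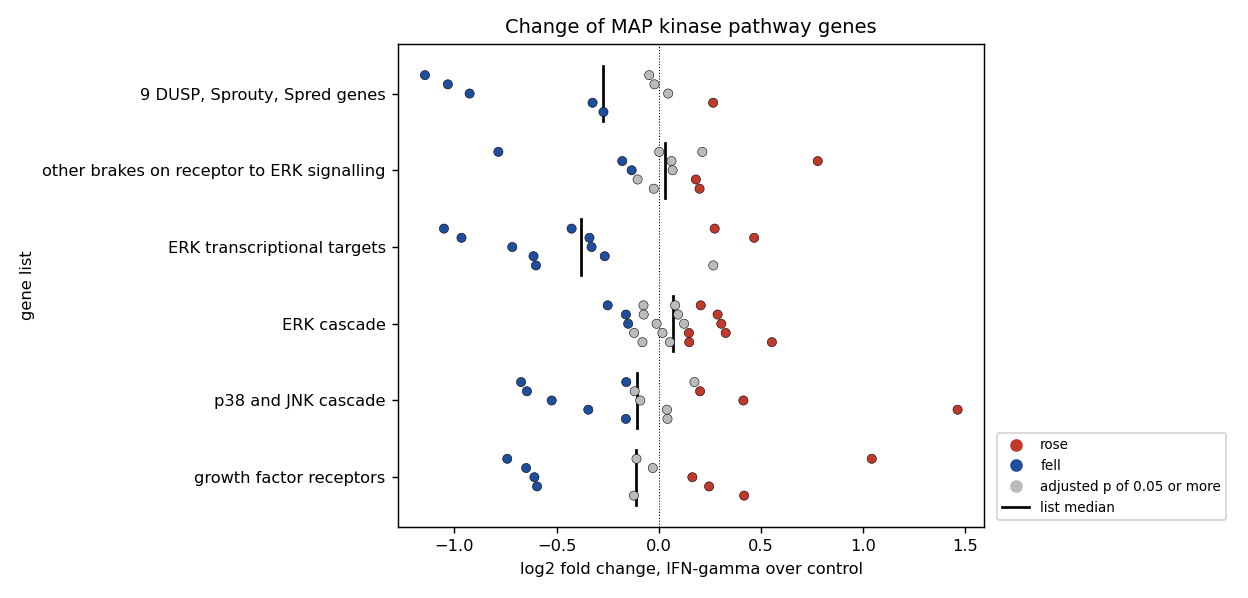
Log2 fold change, IFN-gamma over control (horizontal axis), of each tested gene in 6 lists, with genes that rose in red, genes that fell in blue, genes with an adjusted p of 0.05 or more in grey, and a black line for the list median; vertical offsets only separate the points. The medians of the 9 inhibitors (-0.27) and of the ERK target genes (-0.38) lie left of those of the other 4 lists, which run from -0.11 to 0.07.

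For each of the 9 genes, the tested genes with the most similar pattern were found by Pearson's r of log2 CPM over the 6 libraries, as a description. Because the libraries form 2 groups, a gene that changed will resemble many others that changed, and r is high throughout. The nearest genes were Exosc1, Cadm1 and Aatf for Dusp4 (r of 0.997 to 0.998), Phldb1, Tspan9 and Hmga1b for Dusp5 (all at 1.00 to 3 digits), and Slc14a1, Ehd2 and Klhl2 for Dusp1 (0.997 to 0.998). For Spry4 they were Zfp768, Exosc1 and Plk2 (each 0.998), so that Exosc1 was near both Dusp4 and Spry4. For Spred1 they were Vgll3, Psmd1 and C030002A05Rik (0.996 to 0.998), and for Spred2 Aagab, Pcgf6 and Ddx10 (0.992 to 0.996). Psmd1 passed the edgeR quasi-likelihood test narrowly (adjusted p = 0.04404) and lost its call in every fit that left out a library. Aagab did not pass that test (adjusted p = 0.06485) but was called in 4 of 17 alternatives. The 3 members that did not pass the test had lower r, with Tubb4a, Kctd2 and Gm40365 nearest to Dusp6 (0.954 to 0.962), Prcc, Cand2 and Rmdn1 to Dusp10 (0.943 to 0.981), and Ywhab, Hdgf and Adnp2 to Spry2 (0.968 to 0.984).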

How the data were processed

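RNA was sequenced from 6 libraries of IEC 4.1 cells, grouped by the treatment given in the labels. The submitters' processing notes name the builds GRCm38.p6 and mm10 and the aligners HISAT and HISAT2, without roles, and no source used here gives the counting program or strand setting. The authors deposited estimated counts (6.802% to 7.374% of values per library not whole), TPM and FPKM values for each gene, per the file headers, and the deposited FPKM values entered no test. Rounded to integers, the estimated counts entered edgeR 4.0.16 (R 4.3.3): filterByExpr (minimum count 10) kept 11423 of 14701 genes, TMM scaled the libraries, and glmQLFit (robust=TRUE) with glmQLFTest set IFN-gamma against control. P-values were adjusted by Benjamini-Hochberg across the tested genes and called under 0.05. CPM use the TMM-scaled library size, and standard errors were computed from log2 CPM with a prior count of 2. The 95% intervals of fold changes come from the quasi-likelihood F statistic. They can be wider than the SE implies, as for Dusp1 (SE 0.04, interval -0.49 to -0.15 on the log2 scale). TMM factors were 0.9717 to 0.9816 in IFN-gamma libraries and 1.016 to 1.033 in controls. The script was tested on simulated data.

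The members, the gene lists and the tests were chosen with earlier results of these data known. Named are the 9 members and, from each other pathway list, up to 4 genes of smallest adjusted p and up to 2 abundant genes that did not pass. For each member the 3 genes of highest r are also named, and any other gene is said to be named after its values were seen. Of the genes this rule names, 1 is not reported here. Alternatives were DESeq2 1.42.0, limma-voom (limma 3.58.1), scaling by RLE, by upper quartiles or by total counts, no filter, at least 1 CPM in 3 samples, robust=FALSE, limma on log2 TPM with a pseudocount of 1 or 0.1, a block for the replicate number, and fits that each left out 1 library. Gene starts and promoters are from RefSeq, GRCm38.p6. The endothelial markers (2 of 4 with a row) summed to 0.11 to 0.27 TPM with IFN-gamma and 0.11 to 0.14 TPM in controls. Of 6 leukocyte markers 3 had a row, and 0 of the 2 tested were called, beside 38.1% of all genes tested.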

Additional observations from a re-analysis of the deposited data

How the results depend on the processing

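Over 17 alternatives the same 5 members were called lower (Dusp1, Dusp4, Dusp5, Spry4 and Spred2), and Spred1 was called higher in 15. With limma on log2(TPM + 1) and log2(TPM + 0.1), 0 members rose, with log2 fold changes of Spred1 of 0.16 in each (adjusted p = 0.121 and 0.116). Over all genes tested the main fit gave 2278 rises and 2069 falls. Both log2 TPM scales gave fewer rises and more falls (1294 and 3229 with a pseudocount of 1, 1302 and 3237 with 0.1), total-count scaling gave 1644 and 3124, and upper-quartile scaling 1775 and 2823, where the medians of all genes shifted by -0.0995, -0.11, -0.0719 and -0.0536 on the log2 scale. Leaving out 1 library in turn gave 1851 to 2187 rises and 1710 to 2025 falls, with 1 member that rose and 5 that fell each time. In those fits the log2 fold change ran from -1.24 to -1.08 for Dusp4, -1.10 to -0.96 for Dusp5, -1.01 to -0.87 for Spry4, -0.36 to -0.29 for Dusp1, -0.31 to -0.22 for Spred2 and 0.23 to 0.30 for Spred1. Log2(TPM + 1) understates a rare gene, and the fall of Spry4 there was -0.44. With the replicate number as a block there were 2133 rises and 1793 falls, again with 1 and 5 members, and Spred3 lost its call (adjusted p = 0.158). The groups share only numbers 2 and 4, whose libraries correlated at 0.128 and -0.09 in their deviations from the group means, and the labels do not say what a number marks. Among the genes named here, sign changes came in genes that did not pass the test. With 1 library left out, the log2 fold change ran from -0.071 to 0.028 for Dusp6, -0.258 to 0.139 for Tubb4a, -0.101 to 0.020 for Kctd2 and -0.723 to 0.047 for Gm40365, each positive only without IFN-gamma replicate 2. It ran from -0.0070 to 0.066 for Dusp10, -0.020 to 0.069 for Prcc and -0.026 to 0.348 for Cand2, each negative only without control replicate 4. With upper-quartile scaling, total counts, log2(TPM + 1) and log2(TPM + 0.1), in that order, Dusp10 gave -0.0068, -0.025, -0.059 and -0.063, and Prcc gave -0.0083, -0.026, -0.063 and -0.063. Pebp1 gave -0.0091 with total counts and -0.046 on both TPM scales, and Errfi1 0.016 with the block. Of 153 member values under alternatives 145 kept sign and side of the threshold. The cause of these differences was not tested. In the main fit low counts left Dusp2 and Spry3 untested and widened the intervals of Spry4 and Spry1. With no filter, 3 of the other MAP kinase phosphatase genes were called lower, beside 2 in the main fit.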
